A study of Mus musculus with 6 samples.

Results

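Described here are 9 mouse genes that mark regulatory T cells or carry their signals: the transcription factors Foxp3 and Ikzf2, the cytokine receptor genes Il2ra and Il1rl1, the tumour necrosis factor (TNF) receptor genes Tnfrsf4, Tnfrsf18 and Tnfrsf9, and the effector genes Itgb8 and Areg. They were taken by symbol from the 33696 genes of the deposited feature lists, where each symbol stands on 1 row. The series profiled living CD45+ cells, that is white blood cells, sorted from mouse mammary tumours, by droplet 3′ RNA sequencing with unique molecular identifiers (UMIs), which count captured RNA molecules. Its title names MERTK inhibition, cyclophosphamide and triple negative breast cancer. Each of the 6 libraries carries its own treatment label, and 5 are described here: MRX, CTX, Combined, ctxd18t and combod18t; the counts of VC were not analysed here. The labels do not spell these names out. The shared protocol says that mice of day 7 were treated 3 hours before tumours were taken, and names an antibody gate on CD45 without Dapi as the only sort; day 18 appears in the library names alone. Strain, age, tumour model, doses and the number of animals behind a library are not given in the sources used here. With 1 library per label no test between treatments was possible, no p-value is given, and every interval covers counting error only, so a difference between libraries can come from the animals or the preparation as much as from the treatment.

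The files held 4085 to 9064 cell barcodes and 39820288 to 100733880 UMIs per library, and 25653 cells were kept, with a median of 6239 to 8940 UMIs. CTX and combod18t shared 34 barcodes, Combined and ctxd18t shared 21, and every other pair of libraries shared 0. The protocol assigns multiplexing barcode sets to Combined, CTX, MRX and VC and none to the day 18 libraries. Day label and multiplexing assignment thus change together, so their parts in a difference between the day 18 libraries and the others cannot be told apart. Whether shared barcodes are shared cells was not tested; 0 to 3 regulatory cells per library carried one. Without them, each ratio of a member between libraries in regulatory cells stayed within its counting interval.

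Regulatory T cells are CD4+ T cells that restrain other immune cells. Foxp3 is the factor that defines them, and they take up interleukin-2 through a receptor whose alpha chain is encoded by Il2ra. In tumours they often carry the activation receptors OX40, GITR and 4-1BB, the products of Tnfrsf4, Tnfrsf18 and Tnfrsf9, which signal to NF-kB and which activated conventional T cells can also carry. Tissue regulatory T cells can respond to interleukin-33 through Il1rl1 (ST2), activate latent TGF-beta through the integrin chain of Itgb8, and release the growth factor amphiregulin, the product of Areg.

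Promoters are shown for Il2ra, Tnfrsf9 and Areg, since these differed in how far they were shared between cell classes: regulatory cells held more of the Il2ra UMIs than of the others, Tnfrsf9 was also found in natural killer (NK) cells, and Areg in myeloid cells. The sequences are the 250 bases before an annotated start, from RefSeq on GRCm38.p6, whereas the submitters' processing notes name GRCm39. All 9 symbols matched the RefSeq gene list, but no promoter window was available for Ikzf2. The windows of Foxp3, Tnfrsf4, Tnfrsf18 and Itgb8 overlap annotated exons and are not shown. Capitals in Il2ra mark 2 overlapping NF-kB matches, at 201 to 192 and 200 to 191 bases before the start; capitals in Areg mark a cAMP response element (TGACGTCA) at 61 to 54 and a TATA box (TATAAA) at 31 to 26. Tnfrsf9 has its first of 2 annotated starts shown, without a match to any motif searched. The window of its second start overlaps an annotated exon and is not printed; it held an AP-1 match at 15 to 9, a STAT match at 136 to 128 and 2 overlapping NF-kB matches at 43 to 34 and 42 to 33.
Il2ra, chr2:11642542-11642791, plus strand: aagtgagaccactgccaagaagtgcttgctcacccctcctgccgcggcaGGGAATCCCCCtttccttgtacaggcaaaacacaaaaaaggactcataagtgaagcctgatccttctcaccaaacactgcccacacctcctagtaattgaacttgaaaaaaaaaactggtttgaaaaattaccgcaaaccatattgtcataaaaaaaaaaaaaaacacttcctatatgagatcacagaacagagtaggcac
Tnfrsf9, chr4:150919905-150920154, plus strand: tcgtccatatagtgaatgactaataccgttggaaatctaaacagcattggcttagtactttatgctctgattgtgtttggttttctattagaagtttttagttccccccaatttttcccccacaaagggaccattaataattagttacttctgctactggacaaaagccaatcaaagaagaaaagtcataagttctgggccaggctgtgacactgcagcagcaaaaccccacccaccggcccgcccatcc
Areg, chr5:91139349-91139598, plus strand: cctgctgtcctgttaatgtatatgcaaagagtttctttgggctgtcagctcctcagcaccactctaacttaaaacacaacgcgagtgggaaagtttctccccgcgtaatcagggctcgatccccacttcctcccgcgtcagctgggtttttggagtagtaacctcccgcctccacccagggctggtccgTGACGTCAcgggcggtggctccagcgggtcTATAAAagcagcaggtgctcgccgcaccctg
Among 32841 promoter windows of 250 bases, 3.90% held the NF-kB motif, 1.55% TGACGTCA, 12.4% TATAAA, 6.75% the AP-1 motif TGANTCA and 7.02% the STAT motif TTCNNNGAA, counting both strands. A match describes letters and is no evidence of binding, and 3′ reads do not show which start was used.

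Cells were clustered and named without the 9 genes, so their pattern was not used to find the regulatory cells. Of the 18 subclusters of T-like cells, 3 were named regulatory T-like from 11 other markers, such as Ctla4, Lrrc32 and Izumo1r, and held 176 MRX, 294 CTX, 236 Combined, 171 ctxd18t and 231 combod18t cells. Foxp3 fits that name. These cells were 3.40% to 5.99% of the cells kept and held 83.7%, 75.5%, 74.2%, 61.0% and 64.9% of the Foxp3 UMIs. Here and below, lists of 5 values follow the order MRX, CTX, Combined, ctxd18t, combod18t. Levels are in CPM, that is UMIs of the gene per 1000000 UMIs of the class in that library, with all its cells added together.

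Foxp3 stood at 213, 198, 243, 258 and 208 CPM in regulatory T-like cells, against 3.00 to 10.9 in other CD4 T-like and 0.391 to 3.26 in CD8 T-like cells. The regulatory range lay above both others, which overlap each other. At least 1 Foxp3 UMI was seen in 66.5% to 76.7% of regulatory cells, 0.933% to 2.87% of other CD4 cells and 0 to 0.506% of B-like cells, which should lack the gene; median depths were 5195 to 8425.5 UMIs in the regulatory and 4023 to 8188.5 in the B-like cells. After each cell was thinned to 1000 UMIs, the regulatory share was 21.1% to 28.4%, and 0 B-like cells had a Foxp3 UMI; the upper limit on their share was 0.383% to 1.20%, depending on the library. Outside CD4 cells, Foxp3 reached 28.1 CPM in unnamed T-like cells (combod18t), which held 15.9% and 14.1% of its UMIs at day 18, and 24.4 in plasmacytoid dendritic-like cells (Combined). Summed over the same plasmacytoid class, Tnfrsf9 stood at 12.3, 46.2, 177, 187 and 185 CPM. Doublets or free RNA as a part of these low levels were not tested.

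Ikzf2 encodes Helios, a factor of the Ikaros family. Its level in regulatory cells was 2860.1, 2316, 2307, 3864 and 3559 CPM, highest in the day 18 libraries. It was found in NK and CD8 cells as well: NK-like cells held 383, 599, 517, 932 and 946 CPM, CD8 T-like cells 76.4, 239.7, 193, 229.6 and 96.9, and other CD4 cells 146, 124, 273, 392 and 66.4. In every library the regulatory level was above the NK-like level, and between 28.7% and 48.7% of a library's Ikzf2 UMIs lay in regulatory cells. Unnamed T-like cells held 294, 632, 409, 1339 and 1972 CPM, above the NK-like level in CTX and the day 18 libraries. In ctxd18t and combod18t they held 37.2% and 33.0% of the Ikzf2 UMIs, against 28.7% and 37.0% in regulatory cells. In thinned cells, 79.6% to 86.5% of regulatory cells had an Ikzf2 UMI.

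Il2ra stood at 643, 772, 936, 721 and 593 CPM in regulatory cells, with Combined highest, and 36.1% to 50.4% of them had a UMI after thinning, against 0.157% to 0.803% of B-like cells. Other CD4 cells held 59.2, 69.6, 115, 61.2 and 19.2 CPM and CD8 cells 7.23 to 21.5. Gamma-delta T-like cells were the exception among T cells: the 62 of combod18t held 651 CPM of Il2ra (591 to 715), an interval that overlaps that of the regulatory cells of the same library (564 to 623), while the other libraries had fewer than 50 such cells each. Plasmacytoid dendritic-like cells held 35.1 to 143.

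Il1rl1, which encodes the interleukin-33 receptor, stood at 301, 231, 351, 344 and 422 CPM in regulatory cells, lowest in CTX and highest in combod18t. Levels in other CD4 cells were 6.43 to 55.7 and in CD8 cells 0.227 to 8.15. Regulatory cells held 43.5% to 78.1% of the Il1rl1 UMIs of a library. The lowest share, in ctxd18t, came with 29.7% of that library's UMIs in cells left unnamed. Counts per gene do not separate the soluble from the membrane-bound form of ST2.

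Of the TNF receptors, Tnfrsf4 had the largest share of its UMIs in regulatory cells in every library. Its regulatory levels were 972, 1090.1, 1109.6, 965 and 573 CPM, its levels in other CD4 cells 288, 305, 334, 244 and 68.5, and its levels in CD8 and NK-like cells at most 20.8 and 5.55. In each library regulatory cells were above other CD4 cells, and combod18t was the lowest in both classes. Of a library's Tnfrsf4 UMIs, 38.8% to 55.3% lay in regulatory cells and 9.0% to 26.3% in other CD4 cells.

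Tnfrsf18 was spread more widely. Regulatory cells held 634, 635, 673, 529.9 and 365 CPM, other CD4 cells 199, 215, 228, 136 and 83.0, NK-like cells 137, 155, 172, 105 and 101, and CD8 cells 69.4, 99.5, 114, 73.1 and 43.6. The order regulatory, other CD4, NK-like, CD8 held in the first 4 libraries; in ctxd18t and combod18t the intervals of NK-like and other CD4 cells overlapped, with NK-like cells nominally above in combod18t. A non-coding gene on the opposite strand, Gm16008, overlaps Tnfrsf18 in the annotation and is in the feature list, so reads of the pair rely on strand-aware counting, which the sources used here do not state for these files. Tnfrsf4 and Tnfrsf18 are close neighbours on chromosome 4, with 2 non-coding genes starting between them.

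Tnfrsf9 was also high in NK-like cells. Its regulatory levels were 1203, 1276, 1363, 1567 and 973, and its NK-like levels 644, 726, 842, 618 and 559. NK-like cells numbered 657 in MRX and 936 in Combined and held 55.6% and 57.2% of the Tnfrsf9 UMIs of those libraries, against 23.1% and 22.1% in regulatory cells. In the day 18 libraries 49.0% and 44.6% lay in T-like cells that no marker list named, described with the unnamed subclusters. Other CD4 cells held 25.5 to 124 and CD8 cells 41.5 to 130.0.

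Itgb8 stood at 261, 193, 171, 572 and 364 CPM in regulatory cells, with ctxd18t highest. Other CD4 cells held 3.32 to 51.4, CD8 cells 0 to 13.4 and NK-like cells 0 to 0.903. Regulatory cells held 42.1% to 74.4% of its UMIs.

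Areg was found in several lineages. Regulatory cells held 243, 244, 246, 366 and 319 CPM, but only 16.3% to 33.0% of a library's Areg UMIs, while monocyte-macrophage-like cells held 35.8%, 35.7%, 28.1%, 16.4% and 4.4%. Neutrophil-like cells reached 269, 507, 119, 93.2 and 197 CPM, above the regulatory level in MRX and CTX. Those values rest on few cells: 4.32% to 11.4% of neutrophil-like cells had an Areg UMI, and in CTX the 5 highest cells held 97.2% of the 107 UMIs. Gamma-delta T-like cells of combod18t held 332.

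**Figure D1:**
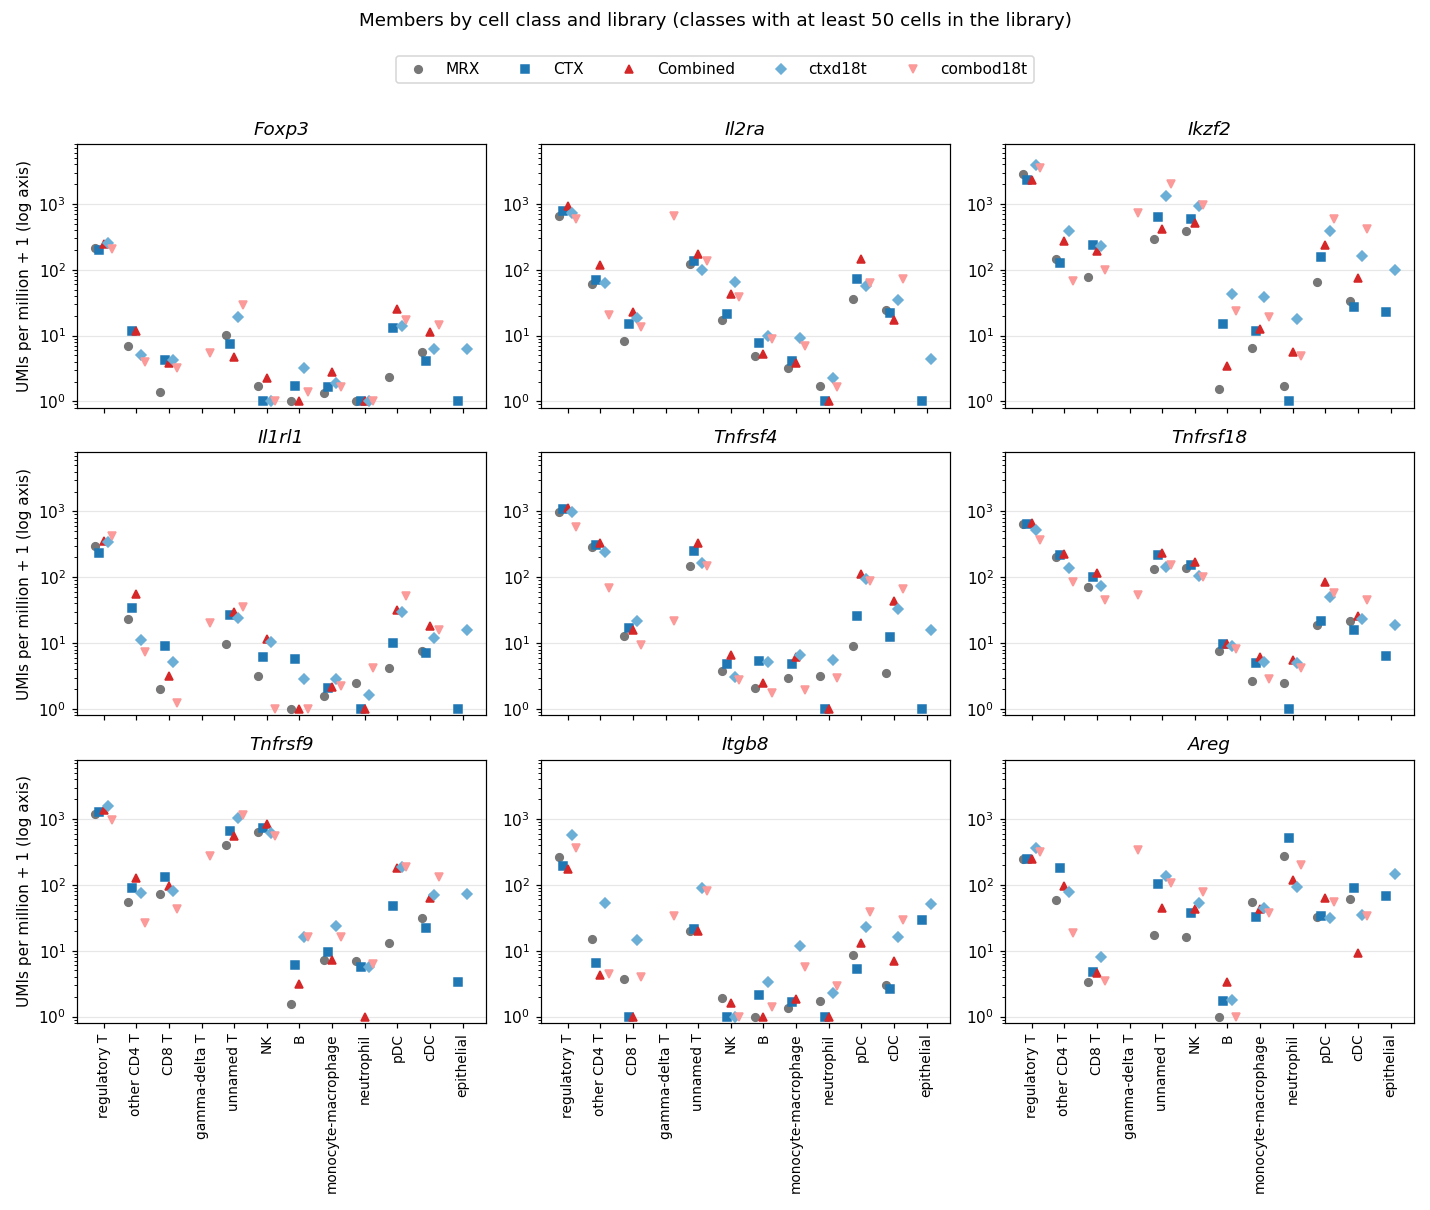
Each panel plots 1 gene: CPM plus 1 on a log axis (vertical) for each cell class with at least 50 cells in a library (horizontal), with a symbol per library. Foxp3, Il1rl1 and Itgb8 stand highest in regulatory T-like cells, Tnfrsf9 and Ikzf2 are also high in NK-like cells, and Areg is found in neutrophil-like and monocyte-macrophage-like cells as well.

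Several of the genes were often seen in the same regulatory cell. Whether they met in a cell more often than their separate shares would give was not tested. With each cell thinned to 1000 UMIs, at least 3 of the 9 were seen in 76.7%, 74.5%, 80.9%, 76.0% and 65.7% of regulatory cells, with combod18t lowest. The share was 0.795% to 5.90% in other CD4 cells, 0.297% to 1.32% in CD8 cells and 0 to 0.174% in B-like cells. Regulatory cells in which no Foxp3 UMI was captured still carried the other genes. In the 294 such cells of all 5 libraries (293 deep enough to thin), thinned shares were 77.1% for Ikzf2, 51.9% for Tnfrsf9, 53.2% for Tnfrsf4 and 34.5% for Il2ra, against 84.6%, 63.6%, 60.1% and 45.7% in the 814 cells with a Foxp3 UMI. The intervals did not overlap for Ikzf2, Tnfrsf9 and Il2ra and did for Tnfrsf4. They also overlapped for Il1rl1 (19.1% without and 25.6% with a Foxp3 UMI), Tnfrsf18 (36.5% and 39.9%), Itgb8 (21.5% and 23.7%) and Areg (18.4% and 18.8%). Cells of all libraries are pooled here, so these shares are a description. Median depths were 6374 and 7809.5 UMIs.

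How many regulatory cells a library held depended on what they were counted against. Of T-like cells they made up 9.55% (8.25 to 10.98), 17.2% (15.5 to 19.1), 24.2% (21.6 to 27.0), 13.7% (11.8 to 15.7) and 8.94% (7.87 to 10.1). Combined was highest, 6.99 points above CTX (interval 3.80 to 10.3) and 14.7 above MRX (11.7 to 17.7), and CTX was 7.69 above MRX (5.46 to 9.94); these comparisons share libraries. When the cycling subcluster described below was not counted as regulatory but kept among the T-like cells, CTX was above MRX by 2.85 points (0.959 to 4.76) and Combined by 9.29. Combod18t was 4.72 points below ctxd18t, a difference of -4.72 (-6.98 to -2.58). Of all cells kept, the shares were 3.40%, 3.46%, 5.52%, 4.45% and 5.99%, which put combod18t above ctxd18t by 1.54 points (0.547 to 2.54) and left CTX and MRX 0.0528 points apart, with an interval that includes 0. The T-like cells numbered 2584 of 3858 cells in combod18t and 1252 of 3845 in ctxd18t. Of regulatory and other CD4 cells together, the shares were 29.7%, 41.3%, 46.1%, 36.2% and 14.2%. Here Combined was above CTX by 4.80 points, with an interval from -0.82 to 10.4 that includes 0.

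**Figure D2:**
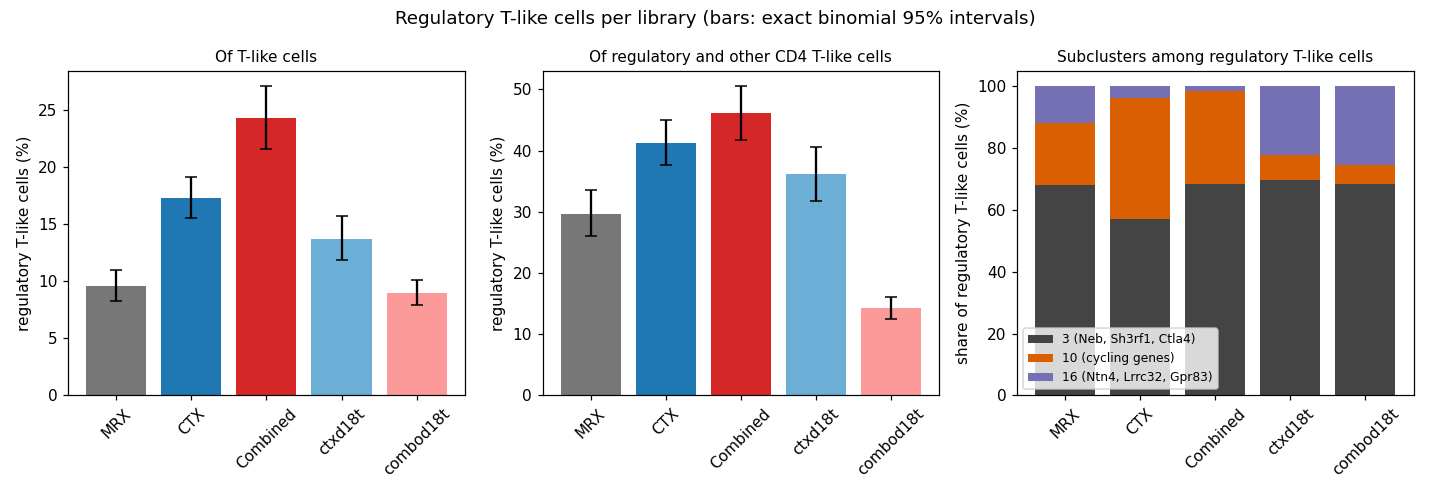
Regulatory T-like cells as a percentage of T-like cells and of regulatory plus other CD4 T-like cells (bars with exact 95% binomial intervals), and the 3 regulatory subclusters as a percentage of regulatory cells, for each library. The share of T-like cells runs from 8.94% to 24.2%, and the cycling subcluster is larger in MRX, CTX and Combined than in the day 18 libraries.

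The regulatory cells fell into 3 subclusters, numbered 3, 10 and 16, which differed in the 9 genes. Subcluster 3 (726 cells), led by Neb, Sh3rf1 and Ctla4, held 57.1% to 69.6% of the regulatory cells of a library. Subcluster 10 (249 cells) was led by Fabp5, Prdx4 and H2ac24, with the cell division genes Fbxo5 and Cenph also among its leading genes, and is called cycling here; it held 19.9%, 39.1%, 30.1%, 8.19% and 6.06%. Subcluster 16 (133 cells), led by Ntn4, Lrrc32 and Gpr83, held 11.9%, 3.74%, 1.69%, 22.2% and 25.5%. The cycling share was thus lower, and that of subcluster 16 higher, in the day 18 libraries than in the other 3.

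Over all 5 libraries Foxp3 stood at 285 CPM in subcluster 3, 131 in 10 and 192 in 16. Il1rl1 and Areg differed by more: Il1rl1 stood at 521, 109 and 35.2, and Areg at 402, 152 and 57.1. Tnfrsf9 stood at 1647, 845 and 407. All 9 genes were highest in subcluster 3 in these sums. Sums for the other genes were 437, 106 and 214 for Itgb8, 3776, 1822 and 2193 for Ikzf2, 879.9, 597.5 and 396 for Il2ra, 1064, 811 and 563 for Tnfrsf4, and 668, 446 and 333 for Tnfrsf18. The order of subclusters 10 and 16 in these sums mixes libraries, since most cycling cells came from CTX and Combined and most cells of subcluster 16 from day 18. In MRX, the only library with at least 20 cells of both, Tnfrsf9 stood at 563 (498 to 634) in 10 and 776 (610 to 973) in 16, the reverse of the summed order. Tnfrsf4 (709 and 848), Tnfrsf18 (420 and 455) and Areg (85.2 and 93.1) were also reversed there, with overlapping intervals, whereas subcluster 16 was the higher for Ikzf2 (1810.1 and 3011) and Itgb8 (91.4 and 300.1) in both. Since the subclusters were built from genes of the same cells, these values are a description.

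**Figure D3:**
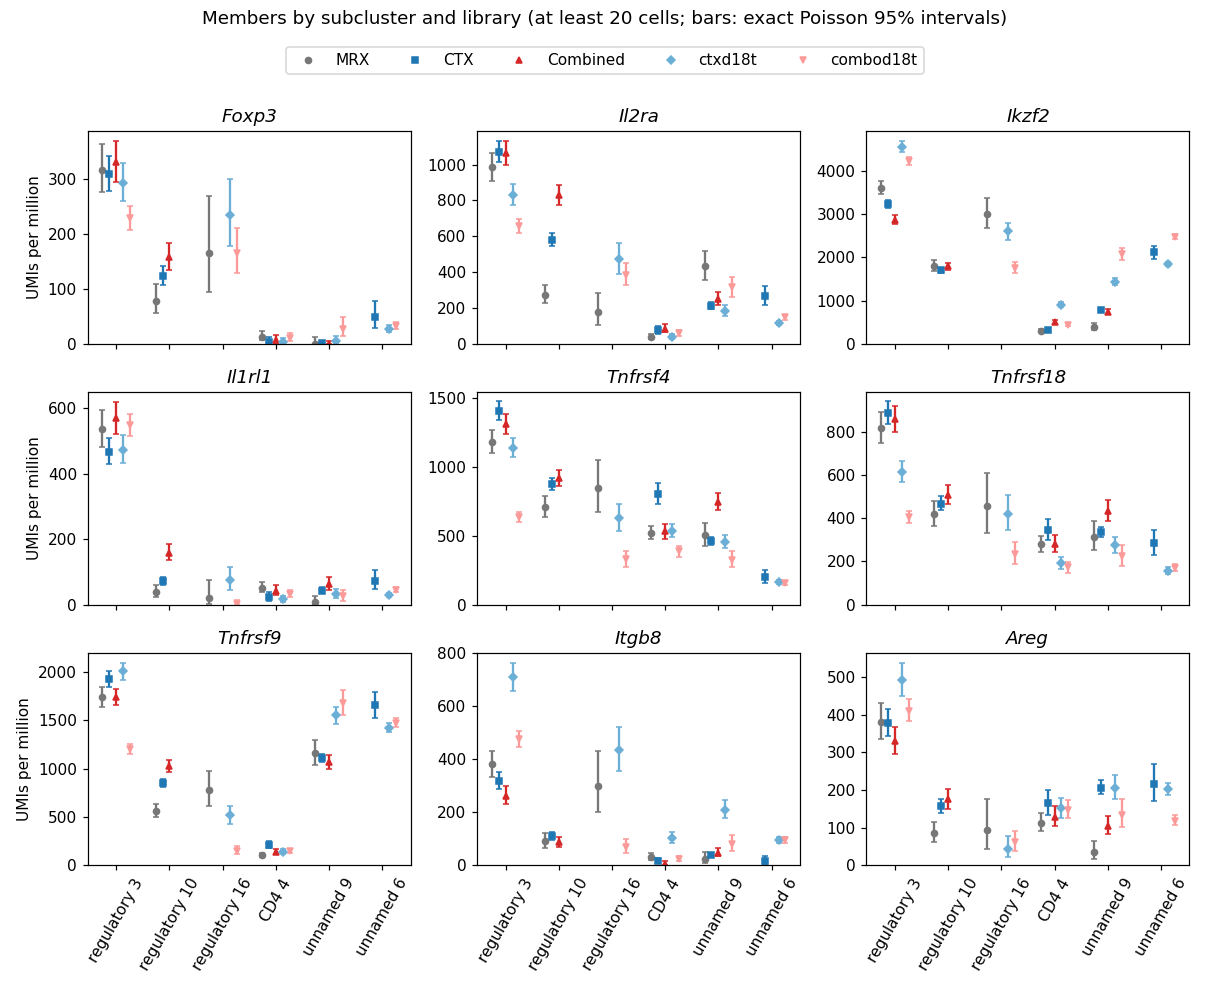
Each panel plots 1 gene in CPM (vertical, with exact 95% Poisson intervals) by T-cell subcluster (horizontal), with a symbol per library, for subclusters with at least 20 cells in the library. Over all libraries, subcluster 3 holds the highest level of all 9 genes among the 3 regulatory subclusters. The pooled Tnfrsf9 levels of the unnamed subclusters 6 and 9 lie within the range of regulatory levels of the libraries. In combod18t both lie above the level of all regulatory cells together.

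Between MRX, CTX and Combined the 9 genes differed by less than 2-fold within regulatory cells. With a threshold of 1 on the log2 scale, that is 2-fold, 0 of 9 passed in Combined against CTX, where 1.57% of the expressed genes did, 0 of 9 in CTX against MRX (5.09%) and 0 of 9 in Combined against MRX (5.13%). A log2 ratio here compares CPM plus 1, which understates changes of low genes, and its interval is at 95%. All 9 genes counted as expressed in these comparisons.

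Il1rl1 had the largest of the Combined against CTX ratios, at 0.60 (0.45 to 0.76), followed by Foxp3 at 0.29 (0.12 to 0.47) and Il2ra at 0.28 (0.19 to 0.37), beside a median of 0.09 over expressed genes. Within subcluster 3 alone, the Il1rl1 ratio was 0.28, the Foxp3 ratio 0.10 with an interval that includes 0, and the Il2ra ratio -0.01. In cycling cells, Il2ra stood at 274 in MRX, 579 in CTX and 827 in Combined, and Il1rl1 at 37.4, 71.6 and 159. In subcluster 3, Il2ra stood at 984, 1070.2 and 1062, so its difference between Combined and CTX was seen in the cycling cells and not there.

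The TNF receptors were nearly level between Combined and CTX, with log2 ratios of 0.03 for Tnfrsf4, 0.08 for Tnfrsf18 and 0.10 for Tnfrsf9; scaled by median-of-ratios, which lowers ratios of this pair by about 0.10, these were -0.08, -0.02 and -0.01, and in subcluster 3 alone they were -0.10, -0.05 and -0.15. Ikzf2 (-0.01), Itgb8 (-0.18) and Areg (0.02) had intervals that include 0.

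Against MRX, Itgb8 was lower in both other libraries, with ratios of -0.43 (-0.63 to -0.23) for CTX and -0.61 (-0.84 to -0.39) for Combined. Ikzf2 was lower as well, at -0.30 (-0.36 to -0.25) and -0.31 (-0.37 to -0.25). Without the cycling subcluster, the CTX ratio was -0.16 for Ikzf2 and -0.26 for Itgb8, and the Combined ratio -0.31 and -0.50. Il2ra was higher, at 0.26 (0.15 to 0.38) for CTX and 0.54 (0.42 to 0.66) for Combined, though the latter was 0.26 without the cycling subcluster and 0.11 in subcluster 3. Il1rl1 stood at -0.38 (-0.57 to -0.20) for CTX and 0.22 (0.04 to 0.41) for Combined; the second turned to -0.18 when regulatory cells were instead taken as CD4 cells with a Foxp3 UMI. The first was -0.06 without the cycling subcluster. Tnfrsf4 differed by 0.17 and 0.19, and Tnfrsf18, Tnfrsf9, Foxp3 and Areg by 0.19 or less in size. Without the cycling subcluster, the CTX ratios were 0.29 for Tnfrsf4, 0.21 for Tnfrsf9 and 0.17 for Tnfrsf18.

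**Figure D4:**
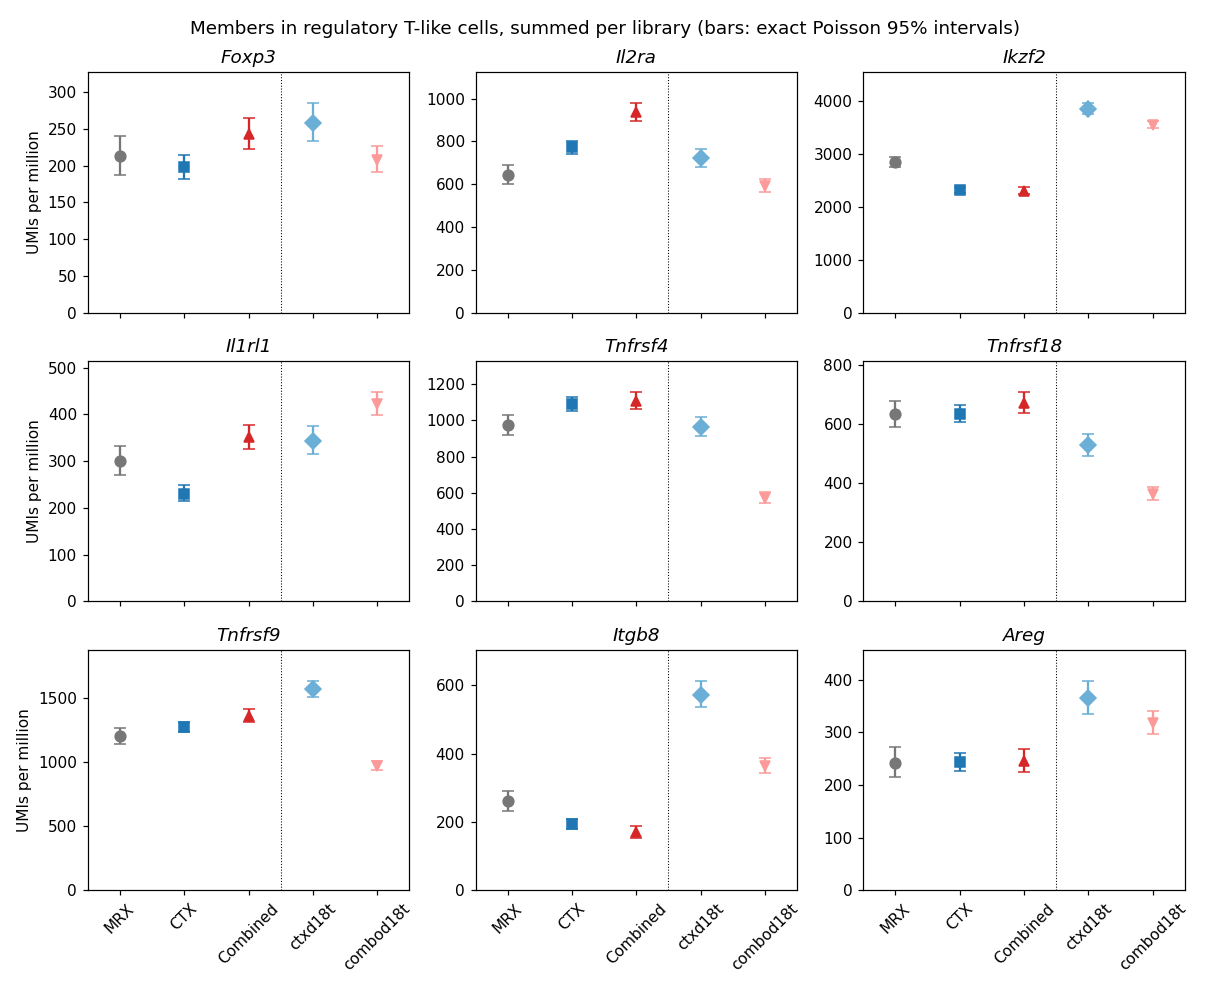
Each panel plots 1 gene in CPM (vertical) in the regulatory T-like cells of each library (horizontal), with exact 95% Poisson intervals; the dotted line parts the day 18 libraries from the others. Tnfrsf4 lies at 965 to 1109.6 in 4 libraries and at 573 in combod18t, and Itgb8 is highest in ctxd18t at 572.

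Between the day 18 libraries, 8 of the 9 genes were lower in regulatory cells of combod18t than of ctxd18t, though 0 of 9 passed 2-fold, beside 3.51% of the expressed genes. The median ratio of the 9 was -0.31, against -0.01 over expressed genes. The 3 TNF receptors and Itgb8 differed most. Tnfrsf4 stood at 965 CPM in ctxd18t and 573 in combod18t, a log2 ratio of -0.75 (-0.86 to -0.65). Tnfrsf9 stood at 1567 and 973, a ratio of -0.69 (-0.77 to -0.61). Tnfrsf18 had a ratio of -0.54 (-0.67 to -0.40).
Itgb8 stood at 572 and 364, a ratio of -0.65 (-0.79 to -0.52). After thinning, 60.2% (52.5 to 67.6) of ctxd18t and 43.5% (37.0 to 50.2) of combod18t regulatory cells had a Tnfrsf4 UMI, and 65.5% and 44.3% a Tnfrsf9 UMI. For Tnfrsf18 these shares were 35.1% (28.0 to 42.7) and 30% (24.2 to 36.4), with overlapping intervals. For Itgb8 they were 40.9% and 20.9%, and the ratio of summed thinned counts was -1.24, past 2-fold.

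Foxp3 and Il2ra were lower by less, with ratios of -0.31 (-0.50 to -0.12) and -0.28 (-0.39 to -0.17), and Ikzf2 by -0.12. Areg had a ratio of -0.20 (-0.35 to -0.04), which turned to 0.52 (0.04 to 1.01) when cells were thinned; the cause was not tested. Il1rl1 was the exception, higher in combod18t at 0.30 (0.15 to 0.45). It was also found in more cells there, 27.0% against 15.8% after thinning.

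The mixture of subclusters did not differ much at day 18, with 69.6% and 68.4% of regulatory cells in subcluster 3. Within subcluster 3 the ratios were of like size: -0.84 for Tnfrsf4, -0.74 for Tnfrsf9, -0.60 for Tnfrsf18 and -0.58 for Itgb8. In subcluster 16, Tnfrsf9 stood at 515 in ctxd18t and 151 in combod18t, and Itgb8 at 433 and 69.1. Il1rl1 stood there at 74.2 and 2.56, on 19 UMIs and 1 UMI, and Areg at 42.9 and 61.4, with overlapping intervals for Areg. Both ran opposite to their ratios over all regulatory cells. The summed level of 5 CD8 markers in regulatory cells was 848 CPM in ctxd18t and 435 in combod18t. In the CD8 cells of these libraries it was 5683 and 1885, so combod18t was the lower in both classes. The other libraries held 186 to 325 in regulatory cells and 2769 to 6419 in CD8 cells. The part of these markers in the day 18 differences was not tested. All 5 CD8 markers were seen in each library. Of 8 NK markers 5 were seen at day 18, summing to 71.8 and 51.9 with Klra8 and Klra4 at 0, and the 8 B markers summed to 19.9 and 14.8. The 12 monocyte-macrophage markers summed to 545 and 396, and the 8 neutrophil markers to 21.9 and 30.1, with Cxcr2 at 0.

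**Figure D5:**
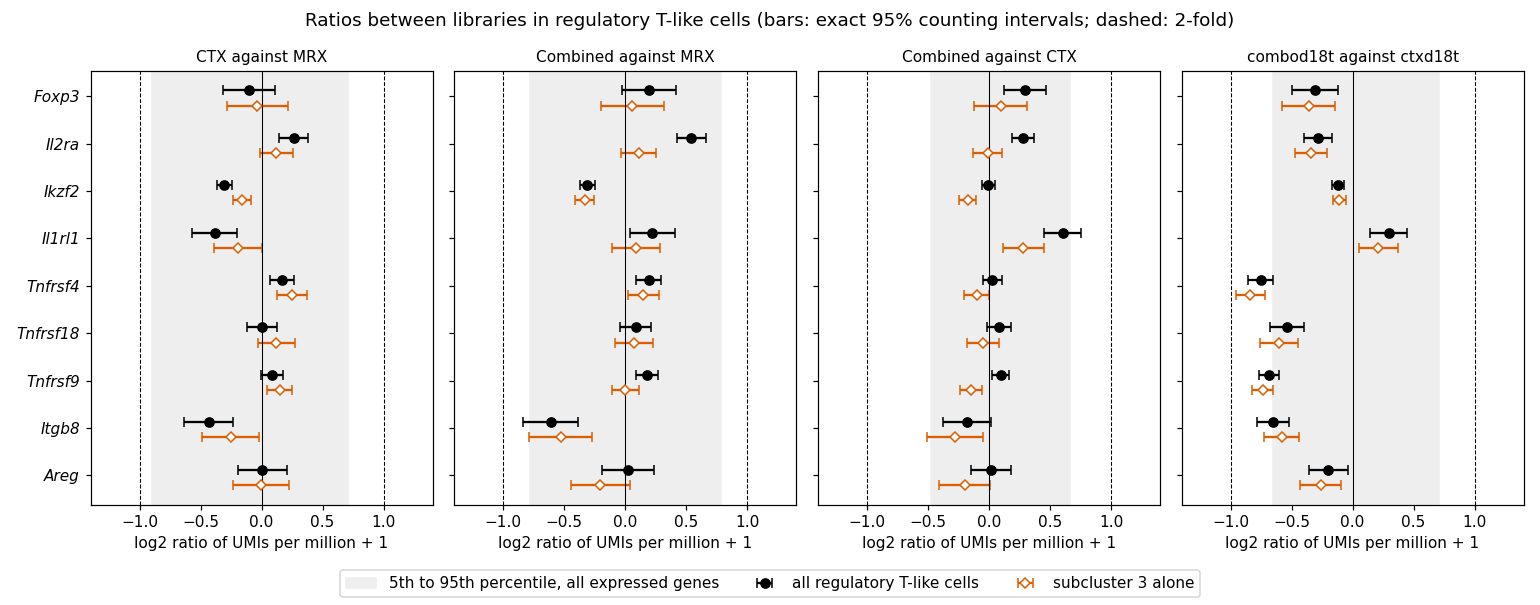
Log2 ratios of CPM plus 1 (horizontal) of the 9 genes (vertical) in regulatory T-like cells for the 4 pairs of libraries, with exact 95% counting intervals, for all regulatory cells (filled) and for subcluster 3 alone (open); grey bands span the 5th to 95th percentile of expressed genes and dashed lines mark 2-fold. In combod18t against ctxd18t Tnfrsf4 lies at -0.75 and Tnfrsf9 at -0.69, both outside the band.

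In other CD4 T-like cells some members passed 2-fold. Combined against CTX had 1 of 8 expressed members past 2-fold higher (4.33% of expressed genes), Ikzf2 at 1.13 (0.90 to 1.38); Itgb8 was too low to count. CTX against MRX had 1 of 9 past 2-fold higher (0.912%), Areg at 1.60 (1.31 to 1.94), and 1 lower (1.87%), Itgb8 at -1.24 on 10 and 28 UMIs. The Areg value rests on 5 cells. Of the 328 Areg UMIs in CTX, 230 came from the 26 cells of subcluster 12, led by Il17f, and 99.1% of these from 5 of them. Combined against MRX had 2 of 9 past 2-fold higher (2.61%), Il1rl1 at 1.29 (0.78 to 1.88) and Tnfrsf9 at 1.18 (0.85 to 1.55), and 1 lower (0.769%), Itgb8 at -1.81 on 5 and 28 UMIs.

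In combod18t against ctxd18t, 6 of 8 expressed members were past 2-fold lower in other CD4 cells, beside 6.45% of expressed genes; Foxp3 was too low to count. Ikzf2 had a ratio of -2.54 (-2.71 to -2.41), Tnfrsf4 of -1.82 and Tnfrsf9 of -1.52 (-1.85 to -1.26). Il2ra stood at -1.62, Areg at -2.06 and Itgb8 at -3.56. The class was made of different cells in the 2 libraries, however. Subcluster 0, led by St8sia6 and Igfbp4, held 1197 of the 1394 other CD4 cells of combod18t and 74 of the 302 of ctxd18t.
Within subcluster 4, led by Fbn2, Tnfsf8 and Cd40lg, with 117 and 110 cells, the differences were smaller or absent. For Il2ra the direction was nominally reversed, with overlapping intervals. Tnfrsf9 stood there at 147 in combod18t and 139 in ctxd18t, Areg at 148 and 151, and Il2ra at 59.0 and 37.6. Tnfrsf4 (386 and 534), Ikzf2 (443 and 906) and Itgb8 (24.2 and 103.9) were still lower in combod18t.

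In CD8 T-like cells Foxp3, Il1rl1, Itgb8 and Areg were near 0 and mostly below the filter for expressed genes. Ikzf2 was higher in CTX than in MRX, by 1.64 (1.46 to 1.84), and in Combined than in MRX, by 1.33 (1.11 to 1.56). These were 1 of 5 (0.554% of expressed genes higher) and, with Il2ra at 1.45, 2 of 5 members (1.38%). The Ikzf2 difference was present in both main CD8 subclusters: in subcluster 1, led by Ccl5 and Gzmk, it stood at 47.9 in MRX, 191 in CTX and 251 in Combined, and in subcluster 2, led by Pde2a and Sidt1, at 79.3, 226 and 139. Combined against CTX had 0 of 5 past 2-fold (2.18% in either direction).
At day 18, 3 of 6 were past 2-fold lower in combod18t (1.99%): Ikzf2 at -1.24, Tnfrsf4 at -1.22 on 37 and 45 UMIs, and Itgb8 at -1.87 on 13 and 29 UMIs. In ctxd18t, 28 of these Itgb8 UMIs and 21 of these Tnfrsf4 UMIs came from the 20 cells of subcluster 14. Again the cells differed, since subcluster 8 held 354 of 540 CD8 cells in combod18t and 50 of 284 in ctxd18t. Ikzf2 stood at 52.2 and 49.9 within subcluster 8, and at 155 and 124 within subcluster 1, so in neither was combod18t the lower. In subcluster 2 it was, at 158 (21 cells) against 465 (57 cells) in ctxd18t, and subcluster 14, led by Ifit3 and Ifit1, held 805 in 20 cells of ctxd18t and fewer than 20 cells in combod18t.

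A pair of T-like subclusters that the rules left unnamed held part of the Tnfrsf9 and Ikzf2 UMIs. Subcluster 6 (551 cells, 258 of them in ctxd18t and 237 in combod18t), led by Klri2, Klre1 and Prf1, held 1461 CPM of Tnfrsf9 and 2134 of Ikzf2 over all libraries, with Foxp3 at 30.4. Subcluster 9 (349 cells), led by Ccl1, Xcl1 and Penk, held Tnfrsf9 at 1230.1, Tnfrsf4 at 497 and Tnfrsf18 at 329.9, with Foxp3 at 3.999. These pooled Tnfrsf9 levels lay between the lowest and highest regulatory level of a library (973 and 1567), while the Foxp3 levels lay below every regulatory one. Tnfrsf9 in subcluster 6 stood at 1656 in CTX, 1423 in ctxd18t and 1475 in combod18t, against 1276, 1567 and 973 in regulatory cells. In subcluster 9 it stood at 1163, 1107, 1068, 1548 and 1681, above the regulatory level in combod18t alone.

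Across the 58 combinations of class and library with at least 50 cells, the levels of Ikzf2 and Tnfrsf9 ran most alike of any 2 members, with a Pearson correlation of 0.94 on the log2 scale. Areg ran least with the others, at 0.20 to 0.50. Among 7575 other genes, those most like Foxp3 were Rln3 (0.91), Ikzf4 (0.90) and Lrrc32 (0.89). Tnfrsf18 ran with Gata3 (0.96), Igflr1 (0.94) and Ctla4 (0.92), and Tnfrsf4 with Ikzf4 (0.92), Izumo1r (0.92) and Neb (0.89). Tnfrsf9 differed from both, running with Il2rb, Rgs16 and Cysltr2 (0.90 to 0.91).
For Il2ra these were Ctla4, Gata3 and Neb (0.87 to 0.89), for Ikzf2 Osbpl3, Gata3 and Rora (0.91 to 0.92), for Il1rl1 Rln3, Ikzf4 and Neb (0.83 to 0.87), for Itgb8 Sh3rf1, Neb and Ikzf4 (0.83 to 0.87), and for Areg Bmpr2, Fam110a and Egln3 (0.78 to 0.81). Several of these marked or led the regulatory clusters. The points share libraries and depth, and classes rather than samples set most of the spread.

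The ligand genes of these receptors differed in level and in the classes that held them. Il33 is described under the other observations. Tnfsf18, the GITR ligand, reached at most 1.94 CPM in any class with at least 50 cells. Tnfsf9, the 4-1BB ligand, was highest in conventional dendritic-like cells of MRX at 98.0, and Tnfsf4, the OX40 ligand, in unnamed T-like cells at day 18, at 83.1 and 83.0. Il2 was at most 0.811 in regulatory cells, and in other CD4 cells it stood at 12.6, 32.1, 41.1, 15.6 and 1.93. Itgav, which encodes the integrin chain that pairs with that of Itgb8, stood at 1262, 723, 710.5, 1336 and 1351 in regulatory cells; it was lower in CTX and Combined, the libraries in which Itgb8 was also lowest.

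Other genes of these pathways were read in regulatory cells from 4 lists. Of 12 genes of TNF receptor signalling, 0 passed 2-fold in each of the 4 comparisons. The list mixes genes that relay the signal, such as Traf1 and Nfkb2, with inhibitors of NF-kB, such as Nfkbia and Tnfaip3. Its medians were 0.46 in Combined against CTX, -0.00 in CTX against MRX, 0.28 in Combined against MRX and -0.16 at day 18. Those over expressed genes were 0.09, -0.07, 0.03 and -0.01. In Combined against CTX the ratios ran from 0.11 (Traf3) to 0.74 (Birc3). Of 11 ligand and partner genes, 5 or 6 were expressed and 0 passed.
Of 15 genes of effector regulatory cells, 4 were past 2-fold lower and 0 past 2-fold higher in combod18t than ctxd18t (1.38% of expressed genes lower): Il10, an inhibitory cytokine, at -1.30, Klrg1 at -1.35, the granzyme gene Gzmb at -1.16 and the transcription factor Irf4 at -1.06. In each of the other comparisons 1 of 15 was past 2-fold lower: Il10 in Combined against CTX (0.593% of expressed genes), at -1.92 on 44 and 253 UMIs, Il10 in Combined against MRX (2.64%), at -1.22, and Itgae, the integrin chain CD103, in CTX against MRX (3.32%), at -1.64.
Of 8 genes of resting T cells, 4 were past 2-fold higher in combod18t than ctxd18t (2.13% of expressed genes higher): Bcl2 at 1.46, S1pr1 at 1.45, Bach2 at 1.33 and Lef1 at 1.31, with a list median of 1.12. In CTX against MRX 2 were past 2-fold lower, Bach2 at -1.29 and Tcf7 at -1.04, and in Combined against MRX 1, Tcf7 at -1.27.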

How the data were processed

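Sorted CD45+ cells were profiled with a 10x 3′ multiplexing kit. Per the labels' protocols, the authors made the UMI count matrices with Cell Ranger (version 9.0.1); the submitters' processing notes also name Seurat (version 5.2.0) and GRCm39. The deposited counts are whole numbers per gene and cell and were used unnormalized. Strand settings are not given in the sources used here. Libraries held 39820288 to 100733880 UMIs; replicates were not given, so intervals (95%) cover counting error only. VC was not analysed here.

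Cells with at least 200 genes and at most 15% mitochondrial counts were kept. Scrublet (rate 0.06, scanpy 1.11.5) marked too few doublets, so the 5% of cells with the highest scores were removed, with ties kept. Counts were scaled to 10000 per cell; 2000 variable genes without the members and context lists gave 30 components, 15 neighbours and Leiden clusters (leidenalg 0.10.2, resolution 1), and T-like cells were clustered again. The scoring of markers was chosen after seeing the data: T subclusters took the class with the highest mean scaled marker level, needed 3 markers in 10% of cells and a margin of 1.5 times over the next class, and stayed unnamed where more of their 10 leading genes were markers of another class; broad clusters used their 5 best markers, and those of mixed score (0.5) and depth above 1.5 times their libraries stayed unnamed. Of 8 gamma-delta markers, 4 were in the files.

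Counts were summed per class and library (scipy 1.17.1): exact Poisson intervals for CPM, exact conditional binomial intervals for ratios (pseudocount 1), Clopper-Pearson intervals for shares, and Newcombe intervals for differences. Expressed genes had at least 20 counts in a pair of libraries and 10 CPM in 1. Shares of cells with a UMI used cells thinned to 1000 UMIs; zero shares allow 3 counts. All 9 members were named, with their 3 most correlated genes (at least 100 counts and 50 CPM) and list genes past 2-fold with at least 100 counts. The members and lists were chosen with earlier results of these data known. The interval steps were tested on simulated data. Alternatives changed the pseudocount, scaling, depth, cell and doublet filters, clustering and the definition of regulatory cells.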

Additional observations from a re-analysis of the deposited data

Results flagged for a closer look

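For 3 genes and the regulatory share, values had opposite signs, with each interval on its own side of 0, in the 2 pairs of libraries that set a combination label against a CTX label; the difference between the pairs was not tested, and each pair is 1 library against 1. Foxp3 in regulatory T-like cells had log2 ratios of 0.29 (Combined over CTX) and -0.31 (combod18t over ctxd18t). Il2ra had ratios of 0.28 and -0.28. Tnfrsf4, Tnfrsf18 and Areg also had opposite signs, but their intervals in the first pair include 0. Tnfrsf9 had ratios of 0.10 and -0.69; the first lay close to the median of expressed genes, 0.09, and was -0.01 under median-of-ratios scaling and -0.15 in subcluster 3 alone, so its sign depended on these choices. The regulatory share of T-like cells was higher by 6.99 points in the first pair and differed by -4.72 points in the second. Of all kept cells, the share was higher in both pairs, by 2.07 points (1.30 to 2.88) and 1.54 points (0.547 to 2.54). The first pair's Foxp3 and Il2ra ratios were 0.10 and -0.01 in subcluster 3 alone.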

How the results depend on the processing

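Over 36 results of members between libraries and 11 alternatives, 392 values were obtained: 338 lay within the main value's counting interval, 54 outside it, 32 had another sign, for main values between -0.20 and 0.28, and 1 lay on the other side of 2-fold. That was Itgb8 in combod18t against ctxd18t, at -1.24 with cells thinned to 1000 UMIs, so that 1 member passed 2-fold there in place of 0; Areg in the same pair turned to 0.52. The cause was not tested. In thinned cells 5.94% to 11.5% of expressed genes passed 2-fold. Not counting the cycling subcluster as regulatory while keeping it among T-like cells, an alternative chosen after seeing the data, lowered the difference in the regulatory share of T-like cells between CTX and MRX from 7.69 to 2.85 points (0.959 to 4.76) and between Combined and MRX from 14.7 to 9.29; the differences of the remaining pairs in this share stayed within their intervals, and shares of CD4 or all cells were not recomputed. Subcluster 3 alone and cells without shared barcodes were also added after seeing the data. With every gene of at least 1 count, 4.72% to 10.6% of genes passed 2-fold in the 4 comparisons, instead of 1.57% to 5.13%. No replicate could be left out. No paired analysis was possible because each label has 1 library. In CD8 cells 3 or 4 of 9 members fell below the filter for expressed genes and were too low to compare. The smaller subclusters held few cells, with 14 cycling regulatory cells in each day 18 library.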

Other observations

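The receptor gene Il1rl1 and the gene of its ligand interleukin-33, Il33, were both found in a cluster of 304 cells that no marker list named, led by Sparc, Fstl1 and Igfbp7, with a median of 1318.5 UMIs per cell. Il33 stood there at 9.41 (1 UMI), 381, 539.5, 464 and 88.0 CPM in the order of libraries used above, and at 0 in regulatory cells of all 5 libraries. In ctxd18t the cluster held Il1rl1 at 339 CPM, near the 344 of that library's regulatory cells. Few cells carried them: in ctxd18t 5 of 78 cells held the 216 Il1rl1 UMIs, 58.3% of them in 1 cell, and 5 cells held the 295 Il33 UMIs.

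Il2 stood at 211 CPM in plasmacytoid dendritic-like cells of Combined, above the other CD4 cells of that library, but 387 of its 389 UMIs came from 1 cell, and the same class held 0 in the other 4 libraries.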
